A study of Zea mays with 16 samples.

Results

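The 174 genes described here carry identifiers of the GRMZM5G series, which in this maize annotation stand for genes of the chloroplast and mitochondrial genomes. They were taken as every such identifier in the deposited table with a normalized count of at least 10 in at least 4 of the 16 libraries. All 174 listed identifiers met that minimum and none fell below it, so they make up 0.461% of the 37759 genes tested and no listed member was lost to the filter. Nothing in the rule used a difference between groups. The table gives no description for any of the 174, and none matched a gene in the RefSeq table at hand, which holds 158 plastid and 214 mitochondrial genes under other names. Single genes therefore appear by identifier, with no gene name, length, compartment or product, and the label "organelle-encoded" rests on the identifier series alone. The file ends each identifier with a low line (_), left out here.

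Chloroplasts and mitochondria keep small genomes of their own, inherited from free-living bacteria. Plastid genes encode core subunits of the photosystems, the cytochrome b6f complex, the ATP synthase and the NDH complex, the large subunit of Rubisco, an RNA polymerase, and part of the organelle's ribosomes, transfer RNAs and ribosomal RNAs. Plant mitochondrial genes encode subunits of the respiratory complexes, proteins of cytochrome c maturation, and ribosomal components. Most proteins of both organelles are encoded in the nucleus and imported. Organelle transcripts mostly lack the long stable poly(A) tails of nuclear messenger RNA, and a poly(A) tail often marks an organelle RNA for degradation. In a library primed on poly(A), as SMART-Seq libraries are, organelle reads therefore do not measure all organelle RNA.

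The grass stoma has 2 dumbbell-shaped guard cells flanked by a pair of subsidiary cells, which exchange water and ions with them as the pore opens and closes. Both cell types were cut by laser microdissection from freeze-dried epidermal peels of leaf 3 of maize seedlings aged 2 weeks, of the inbred line B104, with no transgene or chemical treatment named. The peels were taken 2 h into a light period of 16 h at 25 °C (day) or 2 h into a dark period of 8 h at 22 °C (night). Crossing the cell type with the time gave 4 groups, each with 4 libraries. Every library came from 2 tubes of about 1500 cells, so each is a pool of many cells and plants are not told apart. Light, temperature and hour of the day changed together and cannot be told apart. The sources name 4 independent collections but do not tie a replicate number to one of them. The titles of the subsidiary night libraries carry a day-like word, and their treatment labels and library names, which say night, were followed.

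The libraries held 16586047 to 28868308 reads counted on the 38179 listed genes, of which 60569 to 190931 (median 118961.5) fell on the 174 genes. Reads not counted on a listed gene are unknown here, and every share of reads below leaves them out. Between 164 and 173 of the 174 had at least 1 read in any given library. Replicate 4 of guard cells by night, with the smallest organelle share, and replicate 1 of subsidiary cells by day, with the fewest organelle genes detected, stand apart in what follows. Counts of called genes are therefore also given without these 2 libraries. No gene of the table could be named from its description as a defining marker of guard or subsidiary cells, so the cell type labels were not checked against markers. As a rough stand-in for neighbouring leaf tissue, genes were picked by the first word of their description. The word was Carbonic or Phosphoenolpyruvate for a mesophyll-type list, and Ribulose or Malic for a bundle-sheath-type list. Both lists were present at low level in all groups. The first word does not tell apart enzymes whose names begin alike and names no tissue, so these sums do not measure neighbouring tissue. The summed share of 6 mesophyll-type genes was 0.0285% to 0.0481% in daytime guard cells, 0.00751% to 0.0216% in the nighttime ones, 0.00566% to 0.0269% in subsidiary cells sampled by day and 0.0135% to 0.0186% in those sampled at night. The summed share of 13 bundle-sheath-type genes was 0.0475% to 0.149%, 0.0257% to 0.0784%, 0.0194% to 0.0624% and 0.0333% to 0.0456% in the same order. Replicate 1 of guard cells by day was highest of the study in both lists (0.0481%, 0.149%) and in organelle share (0.855%). Replicate 4 of guard cells by night was lowest of its group in each (0.00751%, 0.0257%, 0.31%). In subsidiary cells by day replicate 3 was highest and replicate 1 lowest in each. Not all libraries went together: replicate 2 of guard cells by day (organelle share 0.749%) was lowest of its group on the bundle-sheath-type list (0.0475%). The part of such tissue in the organelle values was not tested.

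Organelle-encoded genes took under 1% of the reads counted on listed genes in every library. In guard cells by day the share of reads was 0.855%, 0.749%, 0.544% and 0.619%, a mean of 0.692% ± 0.138 (SD, n = 4). In guard cells by night it was 0.517%, 0.726%, 0.757% and 0.31%, a mean of 0.577% ± 0.208 (SD, n = 4). In subsidiary cells by day it was 0.43%, 0.504%, 0.613% and 0.496%, a mean of 0.511% ± 0.0757 (SD, n = 4), and by night 0.464%, 0.418%, 0.52% and 0.529%, a mean of 0.483% ± 0.0515 (SD, n = 4). Groups that differ in cell type or in time alone overlap, while daytime guard cells (lowest 0.544%) lie above nighttime subsidiary cells (highest 0.529%), which differ in both. The guard cell libraries hold both the highest and the lowest value, and their spread within a group was wider than that of the subsidiary cell libraries. The mean of guard cells by night was 0.666% without its replicate 4. With so many reads the exact 95% binomial interval of any share was at most 0.0041 percentage points to either side. This interval takes each read as an independent draw, which reads of amplified libraries are not. It covers neither the sampling of molecules nor the spread between libraries. In such bulk libraries fewer organelles or cells and less organelle RNA per cell cannot be told apart.

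The share was split between the 12 genes with the most reads and the rest. Those 12 took 0.258% to 0.414% of the reads in daytime guard cells, 0.0728% to 0.326% in the nighttime ones, 0.137% to 0.242% in daytime subsidiary cells and 0.135% to 0.2% at night. On these 12 genes guard cells by day lay above both subsidiary groups in every library, by a small margin (lowest 0.258%, against 0.242%). The 12 were ranked on these same libraries. They include GRMZM5G851130, which passed the test by day (described below), and 2 genes with nearly the same reads, GRMZM5G844628 and GRMZM5G806488. In the 2 nearest libraries, replicate 3 of each daytime group, GRMZM5G851130 held 8221 in guard and 963 in subsidiary cells. Whether the order holds without single genes was not tested. The other 162 genes took 0.286% to 0.46%, 0.237% to 0.45%, 0.293% to 0.371% and 0.283% to 0.348% in the same order, and all 4 groups overlapped. These sums are descriptions and carry no test.

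Nuclear genes, picked by the first word of their description, are given for comparison. A list of 24 nuclear genes described as Photosystem proteins took 0.176% to 0.334% of the normalized counts in guard cells by day and 0.0156% to 0.109% by night, with no overlap. In subsidiary cells the list took 0.0434% to 0.175% by day and 0.0414% to 0.0677% by night, and the ranges overlapped. By day 23 of the 24 lay higher in guard than in subsidiary cells, with a median log2 fold change of 1.88. At night 13 did, with a median of 0.16. With day and night averaged over both cell types, 4 of the 24 passed the test (described below) as higher by day, none as lower, and the median log2 fold change was 1.4. Of all genes tested 2.62% passed in that comparison, 1.7% as higher by day. Of 30 nuclear genes whose description begins with Chlorophyll, 16 passed as higher by day and none as lower, with a median of 3.13. Of 23 genes whose description begins with 30S or 50S, and of 17 beginning with NADH or NADH-ubiquinone, 0 passed in that comparison. Of 23 whose description begins with ATP, 2 passed as higher. The difference between these nuclear lists and the organelle genes was not tested.

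**Figure D1:**
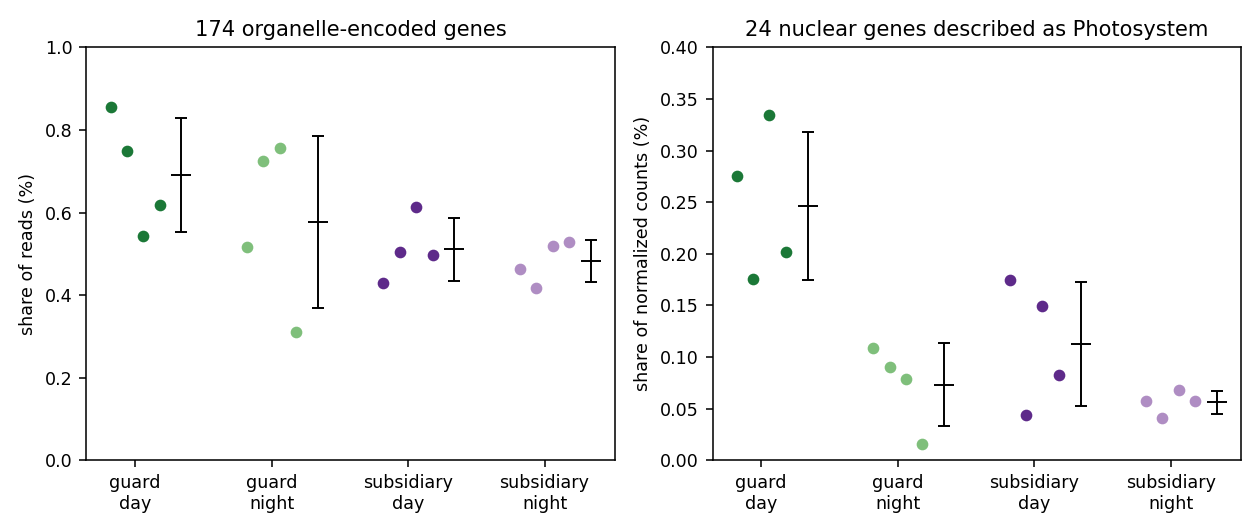
Share of each library's total taken by the 174 organelle-encoded genes (left, % of reads counted on listed genes) and by 24 nuclear genes described as Photosystem proteins (right, % of normalized counts), for 4 libraries per group in replicate order. Each dot is 1 library and the black bar is the mean ± SD; the organelle share (0.31% to 0.855% over all libraries) overlaps between groups that differ in 1 factor, while the nuclear list in guard cells separates day (0.176% to 0.334%) from night (0.0156% to 0.109%).

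Reads were spread unevenly over the 174 genes. Mean normalized counts over the 16 libraries, which are reads scaled between libraries but not divided by gene length, ran from 15.7 to 8637 with a median of 264. Over all genes tested the median was 182. Of the 174, 36 had a mean above 1000, 94 lay between 100 and 1000, and 44 lay under 100. The gene with the most reads, GRMZM5G845024, took 7.15% of all organelle reads, the first 5 took 22.4%, the first 12 took 39.5%, and the first 50 took 78.5%. By the value reached in at least 4 libraries, which the minimum of 10 was set on, the lowest genes were GRMZM5G800457 at 23.6 and GRMZM5G850100 at 35.2, so the whole list sits clear of that minimum. Since lengths are unknown, this order is one of reads and not of transcripts.

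**Figure D2:**
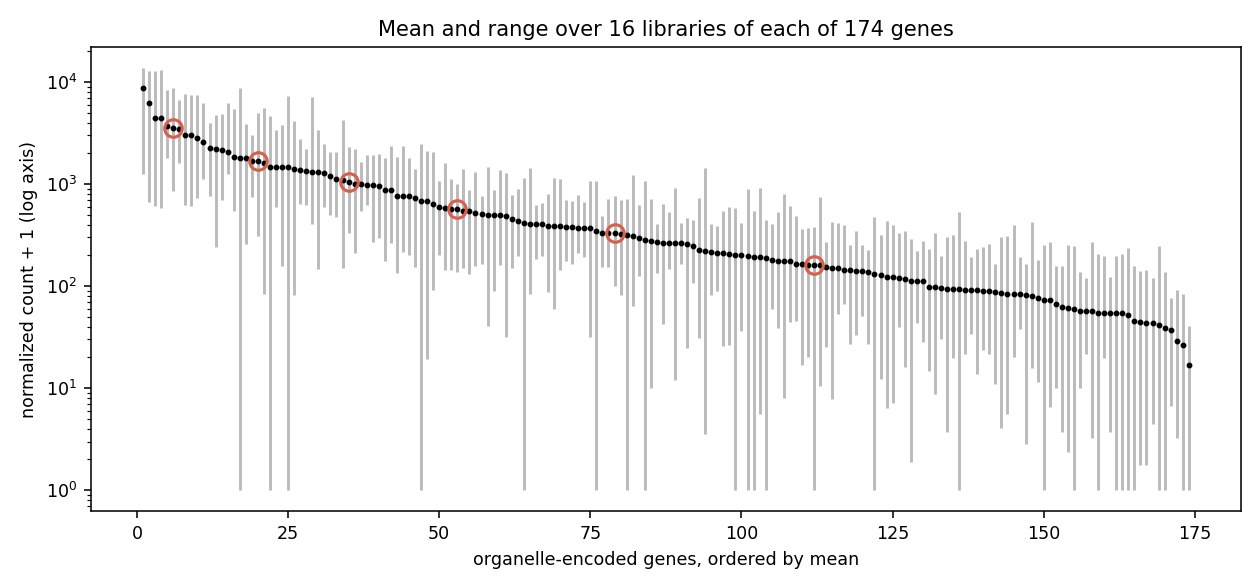
Mean normalized count (black dots, log axis, 1 added) and the range from the lowest to the highest of 16 libraries (grey bars) for each of the 174 organelle-encoded genes, ordered by mean. Means run from 15.7 to 8637; bars that reach the bottom belong to the 26 genes with no reads in at least 1 library, and red circles mark the 6 genes that passed the test in at least 1 comparison.

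The gene with the most reads, GRMZM5G845024, was high in both cell types. It was the most-read organelle gene in 8 of 8 subsidiary libraries and in 3 of 8 guard libraries, where GRMZM5G800980 (3 libraries), GRMZM5G851130 (1) or GRMZM5G892247 (1, replicate 4 by night) came first in the others. Its normalized counts were 13548, 8530, 7211 and 8272 in guard cells by day, and 4567, 13440, 8927 and 1258 by night. In subsidiary cells they were 5707, 11347, 12373 and 13143 by day, and 6841, 6202, 9068 and 7758 by night. All 4 groups overlap, with one low library among the guard cells by night, and the log2 fold change of guard over subsidiary cells averaged over both times was −0.34 ± 0.38 (SE). GRMZM5G800980, the next in reads, held 12835, 9141, 6927 and 5867 in guard cells by day, and 5346, 8750, 10690 and 669 by night. Its subsidiary cell values were 2457, 4472, 10750 and 6972 by day, and 3115, 2971, 4590 and 3567 by night. By day the groups overlap, and by night 3 of the 4 guard libraries lie above all subsidiary libraries while replicate 4 lies below them.

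Other genes among the 12 with the most reads leaned to one cell type without passing the test. GRMZM5G838396 held 2450 to 7481 in guard cells by day and 772 to 2498 in subsidiary cells by day. Its log2 fold change was 1.58 ± 0.52 (SE), with an adjusted p of 0.166 in limma. GRMZM5G836994 held 2555 to 6188 and 1121 to 2563 in the same groups, with 1.35 ± 0.44 and an adjusted p of 0.16 in limma. Each of these pairs of ranges overlaps by a small margin. GRMZM5G845244 held 3370 to 7504 in guard cells by day and 902 to 4665 in subsidiary cells by day, and its log2 fold change was 1.23 ± 0.56 (SE). GRMZM5G827309 leaned the other way, with 2175, 2624, 2098 and 1779 in guard cells by day against 4705, 8370, 4640 and 4360 in subsidiary cells by day. Those groups do not overlap, and the log2 fold change of −1.31 ± 0.35 (SE) had an adjusted p of 0.0758 in limma. The authors' deposited DESeq2 comparison for the day gives it 1.17 for subsidiary over guard cells, with an adjusted p of 0.0118. By night its guard libraries (2847, 2998, 5262 and 1785) and its subsidiary libraries (3033, 2659, 4338 and 4899) overlap. GRMZM5G867512 held 2048 to 3453 and 3435 to 7640 in the daytime groups, and GRMZM5G861791 held 1505 to 3075 and 1770 to 3928, with log2 fold changes of −0.97 ± 0.45 and −0.42 ± 0.41 (SE). GRMZM5G894515 had the smallest standard error of the 12 (0.32 on the log2 scale by day), between 1611 and 6585 over all libraries, with 3595 to 6585 in daytime guard cells and 2426 to 4217 in daytime subsidiary cells, which overlap.

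For members with a similar number of reads, the spread between libraries of one group was similar to or slightly wider than for other genes. The within-group SD of log2 values had a median of 1.00 over the 174 and 1.04 over all genes tested. For the 26 members with a mean log2 value over 10 it was 0.7, against 0.57 for all genes of that level, and for the 52 members between 8 and 10 it was 0.76 against 0.66. For the 35 members under 6 it was 1.73 against 1.77. The steadiest gene, GRMZM5G898647, had an SD of 0.38 and values between 124 and 622. The least steady, GRMZM5G815453, had an SD of 4.72. It held 422, 7218, 0 and 333 in guard cells by day, 3624, 1521, 4063 and 0 by night, 340, 1168, 1277 and 0 in subsidiary cells by day, and 1881, 110, 649 and 618 by night. It was thus absent from 3 libraries and above 3000 in 3 others, across group boundaries. In all, 148 genes had reads in all 16 libraries, 13 had none in 1 library, 8 in 2, 2 in 3, 2 in 4 and 1, GRMZM5G857320, in 6.

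Some members had nearly the same reads as another member. A pair was called near-equal where the mean over libraries of the squared difference of their reads over their sum was under 3 (a measure near 1 for counting noise alone), with at least 500 reads each, a limit chosen after the values were seen. This joined 27 of the 174 genes (15.5%) into 12 pairs and 1 set of 3, with ratios of total reads between 0.899 and 1.05. The next closest pair stood at 11.3 on the same measure, so the limit falls in a gap. The largest pair, GRMZM5G844628 and GRMZM5G806488, was also among the 12 genes with the most reads, with 69301 and 69085 reads over the 16 libraries and library ratios between 0.978 and 1.06. Other pairs were looser, up to 2.73 on the measure. In libraries where the pair had at least 40 reads, the ratios of GRMZM5G871099 to GRMZM5G856972 ran from 0.56 to 2.07 and those of GRMZM5G899836 to GRMZM5G861353 from 0.701 to 1.81. The set of 3, GRMZM5G876106, GRMZM5G800101 and GRMZM5G810298, had 6061, 6027 and 5958 reads. Among genes with at least 500 reads, 27 of 171 members (15.8%) had a near-equal partner within the list, against 230 of 33985 other genes (0.677%). With at least 2000 reads it was 14 of 125 (11.2%) against 84 of 23347 (0.36%). Counted once per set, the 174 genes are 160 distinct signals. How the authors' counting treated reads that fit more than one copy is not given in the sources used here, so values of genes in a set are uncertain and are not independent of one another.

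**Figure D3:**
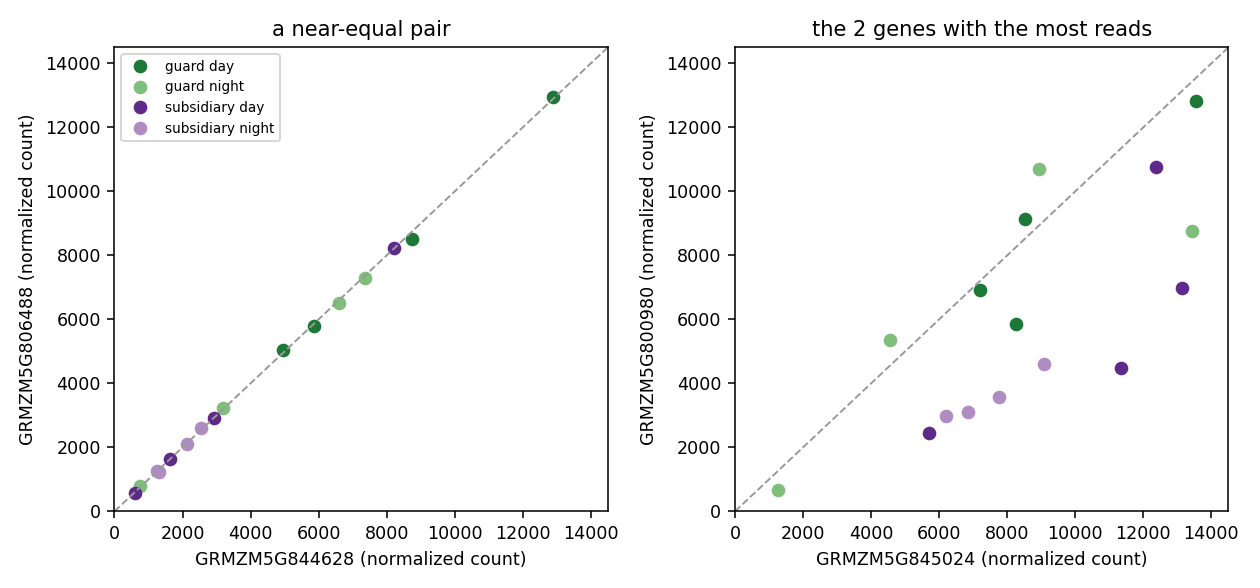
Normalized counts of 2 pairs of organelle-encoded genes in the 16 libraries (dots, coloured by group; the dashed line marks equality). The left pair, GRMZM5G844628 and GRMZM5G806488, lies on the line in every library with ratios between 0.978 and 1.06, while GRMZM5G845024 and GRMZM5G800980, the 2 genes with the most reads, vary apart.

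This largest pair was higher in guard cells in most libraries, with no call. GRMZM5G844628 held 12890, 8752, 4962 and 5857 in guard cells by day, and 3178, 7376, 6591 and 762 by night. In subsidiary cells it held 610, 1636, 8228 and 2912 by day, and 2145, 1312, 2546 and 1257 by night. Replicate 3 of subsidiary cells by day lies inside the guard range and replicate 4 of guard cells by night lies below the subsidiary night range. The log2 fold change averaged over both times was 1.35 ± 0.49 (SE), with an adjusted p of 0.197 in limma.

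Guard cells were then compared with subsidiary cells gene by gene. Each test used limma on log2(normalized count + 1) with all 16 libraries, Benjamini-Hochberg adjustment over all 37759 genes, and a call at an adjusted p under 0.05. Adding 1 understates the change of a gene with few reads in every library, while single libraries at or near 0 weigh heavily in a mean of log2 values and can enlarge it. By day 3 of the 174 genes passed (1.72%), GRMZM5G851130 and GRMZM5G884707 as higher and GRMZM5G894376 as lower in guard cells, while 1.34% of all genes tested passed, 0.943% as higher and 0.395% as lower. The share of members called is thus close to that of the whole table. By night 0 of 174 passed (0.0291% of all genes), with 10 at an unadjusted p under 0.05 (5.75%, against 8.57% of all genes). For the night edgeR called 0 of the 174 and 2 of all 37759 genes, and DESeq2 called 3 and 610. Averaged over both times 5 of 174 passed (2.87%, against 2.4% of all genes), 3 as higher (1.34% of all genes) and 2 as lower (1.06% of all genes). Without the 2 libraries that stand apart the counts were 5 by day, 1 by night and 9 averaged over both times. Calls over all genes rose as well, from 505, 11 and 907 to 762, 170 and 1287. The members' count by day was 5 without replicate 4 of guard cells by night (815 of all genes) and 1 without replicate 4 of subsidiary cells by day (234 of all genes). The members' averaged count was 8 without replicate 4 of guard cells by night (1113 of all genes). It was 2 without replicate 1 of guard cells by night, replicates 2 or 4 of subsidiary cells by day, or replicate 1 of subsidiary cells by night. It was 3 without replicate 4 of guard cells by day, replicate 3 of guard cells by night, or replicates 2 or 3 of subsidiary cells by night. Over all genes 601 to 773 passed in the fits that gave 2 members, and 651 to 709 in those that gave 3.

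GRMZM5G851130, also among the 12 genes with the most reads, had the smallest adjusted p of the list between the cell types. Its normalized counts were 8722, 5169, 8221 and 7334 in guard cells by day, and 3958, 7089, 6247 and 1253 by night. In subsidiary cells they were 1253, 1227, 963 and 860 by day, and 949, 879, 990 and 1382 by night. By day every guard library lies above every subsidiary library, and by night 3 of the 4 guard libraries do, replicate 4 being the exception. The log2 fold change was 2.76 ± 0.43 (SE) by day, with an adjusted p of 0.0025 in limma, and 2.33 ± 0.3 averaged over both times, with an adjusted p of 0.000364. By night it was 1.9 ± 0.43, which did not pass at an adjusted p of 0.102 in limma. Without replicate 4 of guard cells by night it was 2.44, with an adjusted p of 0.00121 in limma. The calls by day and averaged over times held in all alternatives run, with log2 fold changes of 2.66 to 2.92 and 2.18 to 2.64.

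The order of GRMZM5G851130 and 2 other much-read genes turned over between the cell types. These pairs were picked after their values were seen and are given without a test. GRMZM5G851130 had more reads than GRMZM5G867512 in 8 of 8 guard libraries, by ratios of 1.5 to 3.66, and in 0 of 8 subsidiary libraries, where the ratios were 0.16 to 0.609. Against GRMZM5G827309 it had more reads in 7 of 8 guard libraries (ratios 0.702 to 4.12) and in 0 of 8 subsidiary libraries (0.147 to 0.331). A ratio within a library does not depend on how libraries are scaled, and it shows unequal change rather than which gene changed.

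GRMZM5G884707 was also higher in guard cells. It held 2301, 2080, 1540 and 1557 in guard cells by day, and 985, 1136, 2156 and 854 by night. The subsidiary libraries held 1013, 362, 492 and 369 by day, and 328, 369, 567 and 585 by night. Within each time every guard library lies above every subsidiary library. Its log2 fold change was 1.85 ± 0.39 (SE) by day, with an adjusted p of 0.0199 in limma, and 1.64 ± 0.27 averaged over both times, with an adjusted p of 0.00268. By night it was 1.42 ± 0.39 with an adjusted p of 0.19 in limma, so the night difference taken alone did not pass. The averaged call held in all alternatives run. The daytime call was lost without replicate 1 or 2 of guard cells by day, or replicate 2 or 4 of subsidiary cells by day, at adjusted p-values in limma of 0.0593, 0.0533, 0.0647 and 0.0753.

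GRMZM5G815606 passed in limma when both times were averaged, and not by day (adjusted p of 0.0942) or by night (0.543) taken alone. For the day, the authors' deposited table gives it −1.78 for subsidiary over guard cells, with an adjusted p of 0.0146. It held 4907, 2423, 1757 and 3864 in guard cells by day, and 1479, 2927, 3619 and 310 by night. The subsidiary libraries held 478, 385, 1342 and 750 by day, and 505, 316, 875 and 778 by night. The daytime groups do not overlap, and the nighttime groups overlap through replicate 4 of the guard cells. The averaged log2 fold change was 1.78 ± 0.44 (SE) with an adjusted p of 0.0355 in limma. That call was lost without any 1 of 10 libraries, at adjusted p-values of 0.0586 to 0.0815. It was kept without replicate 2 or 3 of guard cells by day, replicate 4 of guard cells by night, replicate 3 of subsidiary cells by day, or replicate 3 or 4 of subsidiary cells by night.

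GRMZM5G894376 was the gene with the largest difference toward subsidiary cells among those called. In guard cells it held 11.9, 0, 63.3 and 10.5 by day, and 105, 105, 146 and 133 by night. In subsidiary cells it held 90.6, 378, 261 and 357 by day, and 334, 137, 279 and 168 by night. Every guard library by day lies below every other library of the study, and by night the cell types overlap. The log2 fold change of guard over subsidiary cells was −4.6 ± 0.91 (SE) by day, with an adjusted p of 0.0144 in limma, and −2.71 ± 0.64 averaged over both times, with an adjusted p of 0.0283. By night it was −0.83 ± 0.91. The daytime fold change was nearer 0 with a pseudocount of 10 (−3.38) and in DESeq2 (−3.65), which both kept the call. The call was lost in edgeR (−3.61, adjusted p of 0.0652), with only the 2 groups compared in the fit (adjusted p of 0.0949 in limma), and without replicate 4 of subsidiary cells by day (adjusted p of 0.0559 in limma). The averaged call was lost in edgeR (adjusted p of 0.0594). It was also lost without replicate 1 of guard cells by night, replicate 2, 3 or 4 of subsidiary cells by day, or replicate 1 or 3 of subsidiary cells by night, at adjusted p-values in limma of 0.0514 to 0.0667.

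GRMZM5G866979 was lower in guard cells when both times were averaged. It held 112, 255, 167 and 232 in guard cells by day, and 99.1, 281, 236 and 158 by night. Subsidiary cell values were 267, 555, 761 and 400 by day, and 311, 445, 289 and 688 by night. Within each time no guard library reaches the lowest subsidiary library. Its log2 fold change was −1.25 ± 0.33 (SE) with an adjusted p of 0.0486 in limma, close to the threshold. It was lost under TMM scaling (0.0536), in edgeR (0.0606) and without any 1 of 13 libraries (0.0564 to 0.111). It was kept without replicate 2 of guard cells by day, replicate 2 of guard cells by night or replicate 1 of subsidiary cells by day. GRMZM5G866990, with 131 to 677 in the guard libraries and 451 to 880 in the subsidiary libraries, had an averaged log2 fold change of −1.16 ± 0.32 (SE) that did not pass (adjusted p of 0.0638 in limma).

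**Figure D4:**
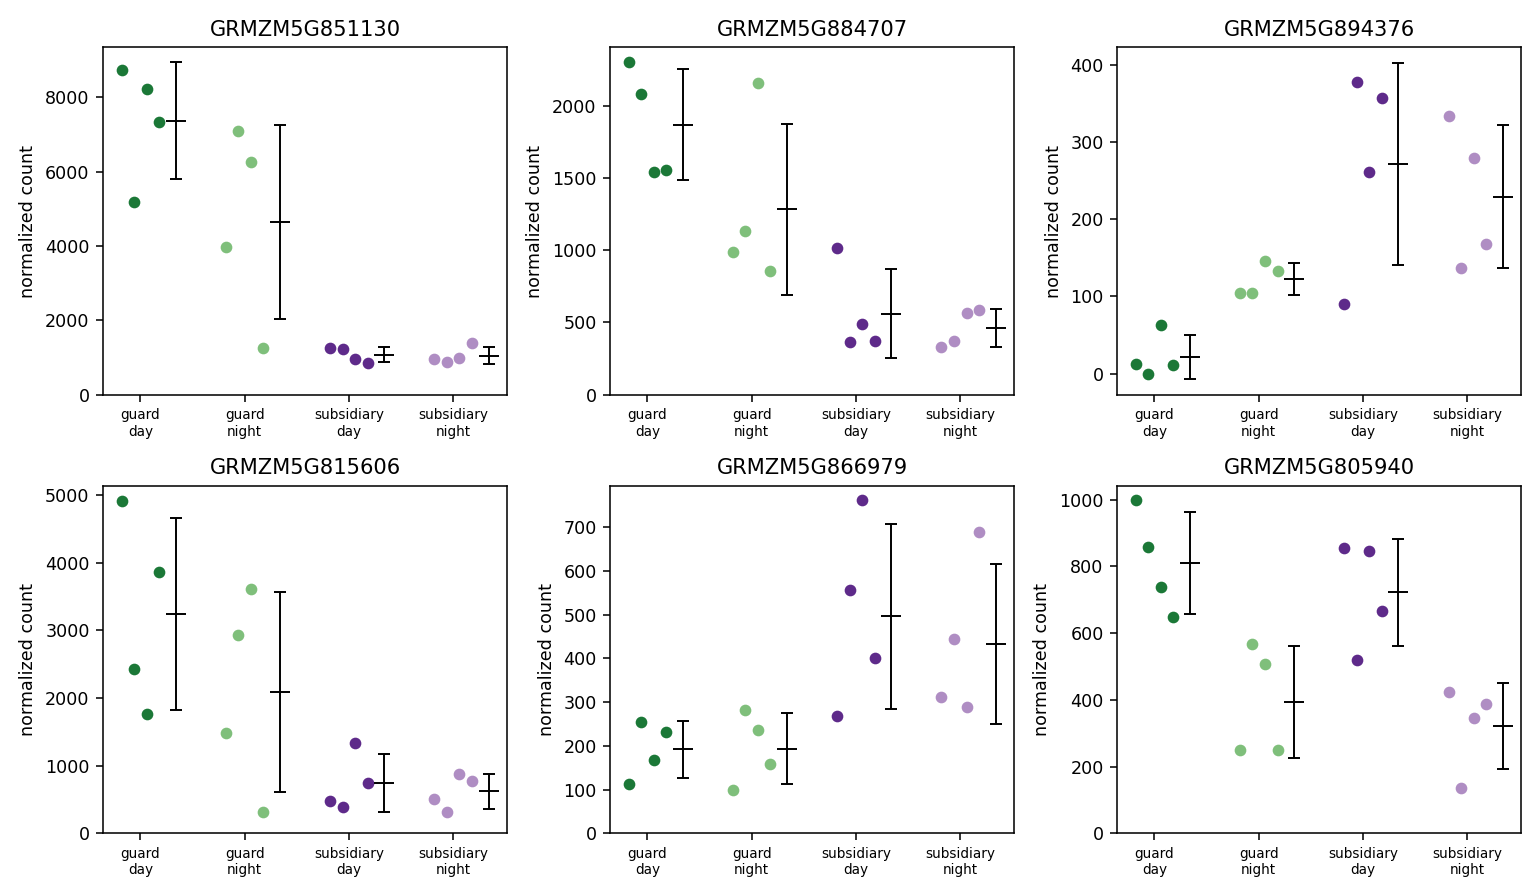
Normalized counts of the 6 organelle-encoded genes that passed the test in at least 1 comparison, by library (dots, 4 per group in replicate order) with the group mean ± SD (black). GRMZM5G851130, GRMZM5G884707 and GRMZM5G815606 are higher in guard cells, GRMZM5G894376 and GRMZM5G866979 lower, and GRMZM5G805940 is higher by day in both cell types; the lowest guard night value of GRMZM5G851130 (1253) and of GRMZM5G815606 (310) is replicate 4.

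Over the whole list the differences between the cell types centred near 0. The median log2 fold change of guard over subsidiary cells was 0.11 by day, with 98 of 174 genes higher, −0.11 by night, with 77 higher, and −0.02 averaged over times, with 82 higher. The median over all genes was 0 in each. The sign of the daytime median was not stable. It was −0.08 without replicates 4 of guard cells by night and 1 of subsidiary cells by day together, and 26 of 28 alternatives left it above 0. The night median was 0.07 without replicate 1 of guard cells by night, the one alternative of 28 that put it above 0. By day 17 of the 174 genes (9.77%) had groups that did not overlap, against 7.8% of all genes. Of the 17, 4 were higher in guard cells (2.3%, against 4.27%) and 13 lower (7.47%, against 3.53%). Those 13 include both genes of the near-equal pair GRMZM5G897615 and GRMZM5G852144, which are not independent of one another. By night 4 of 174 (2.3%) did not overlap, against 5.81% of all genes.

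Day and night were compared within each cell type and averaged over both. In guard cells 0 of 174 genes passed (0.866% of all genes), with 15 at an unadjusted p under 0.05 (8.62%, against 10.1% of all genes). There edgeR called 0 of the 174 and 196 of all genes tested, and DESeq2 called 2 and 1095. In subsidiary cells 0 of 174 passed (1.22% of all genes), again with 15 at an unadjusted p under 0.05 (8.62%, against 11.2% of all genes). There edgeR called 0 of the 174 and 317 of all genes tested, and DESeq2 called 5 and 1334. Averaged over both cell types 1 of 174 passed (0.575%, against 2.62% of all genes), as higher by day (1.7% of all genes). Leaving out 1 library moved the averaged count between 0 and 3. It was 0 without replicate 2 of guard cells by day, replicate 1 of guard cells by night, replicate 4 of subsidiary cells by day or replicate 2 of subsidiary cells by night. It was 3 without replicate 3 of guard cells by day, and 2 without replicate 3 of guard cells by night, replicate 2 of subsidiary cells by day or replicate 3 of subsidiary cells by night. It was 0 without the 2 libraries that stand apart. Over all genes tested the averaged count was 988 with every library, 721 to 1268 without 1 library, and 1312 without those 2.

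The gene called between day and night was GRMZM5G805940. It held 998, 859, 739 and 647 in guard cells by day, and 251, 567, 508 and 249 by night. Subsidiary cell values were 855, 519, 846 and 667 by day, and 422, 135, 344 and 386 by night. In each cell type every daytime library lies above every nighttime library, and the cell types overlap within each time. The averaged log2 fold change of day over night was 1.19 ± 0.29 (SE) with an adjusted p of 0.0294 in limma. Within guard cells it was 1.13 ± 0.41 and within subsidiary cells 1.26 ± 0.41, neither passing alone (adjusted p of 0.302 and 0.18 in limma). The call was lost without replicate 1 or 2 of guard cells by day, replicate 1 of guard cells by night, replicate 1, 3 or 4 of subsidiary cells by day, or replicate 2 of subsidiary cells by night, at adjusted p-values of 0.0505 to 0.0648, and at 0.0673 without the 2 libraries that stand apart.

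Several genes differed between day and night by large factors but also varied widely between libraries. GRMZM5G806435 held 644, 7100, 1161 and 4669 in guard cells by day, and 581, 414, 612 and 1145 by night, with 402 to 893 in the subsidiary libraries. Its 2 highest daytime guard libraries stand well above the other 14 libraries of the study. In guard cells its log2 fold change was 1.8 ± 0.57 (SE), with an adjusted p of 0.202 in limma, while DESeq2 called it (2.3, adjusted p of 0.00543), as did limma without replicate 1 of guard cells by day (2.4, adjusted p of 0.044). GRMZM5G894376, described above, had a log2 fold change of day over night in guard cells of −3.63 ± 0.91 (SE), with an adjusted p of 0.0718 in limma. It passed in DESeq2 (adjusted p of 0.0426) and without replicate 3 of guard cells by day (adjusted p of 0.0176 in limma). GRMZM5G877173 held 129 to 363 in guard cells by day and 6.1 to 88.4 by night, with no overlap, at 2.73 ± 0.88 (SE) and an adjusted p of 0.211 in limma. It is near-equal to GRMZM5G866761 and its reads are uncertain. GRMZM5G844657, in a near-equal pair with GRMZM5G897626, held 2.74 to 27.7 by day and 23.6 to 156 by night in guard cells.

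In subsidiary cells the leading genes by day were GRMZM5G889036 and GRMZM5G856777. GRMZM5G889036 held 1347, 1599, 1446 and 520 by day and 142, 215, 229 and 891 by night, and the groups overlap through replicate 4 of each time. Its log2 fold change was 2 ± 0.53 (SE) with an adjusted p of 0.0775 in limma, and 2.55 with an adjusted p of 0.0125 without replicate 4 of subsidiary cells by night. Its guard cell values, 181 to 541 by day and 228 to 444 by night, overlap. GRMZM5G856777 held 669, 689, 2206 and 1711 by day and 668, 210, 470 and 279 by night, with no overlap but a margin of 1 normalized count between the nearest libraries. Its log2 fold change was 1.64 ± 0.49 (SE) with an adjusted p of 0.139 in limma, and DESeq2 called it (adjusted p of 0.0364).

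Leaning to night in subsidiary cells, GRMZM5G877454 held 0, 220, 1.08 and 216 by day and 824, 967, 1175 and 2483 by night. Those groups do not overlap. Its guard cell values were 86.2, 1483, 0 and 405 by day and 575, 1560, 29.8 and 799 by night, which do. The log2 fold change of day over night in subsidiary cells was −6.12 ± 1.94 (SE), with an adjusted p of 0.171 in limma. With daytime libraries at 0 and 1.08 its size varied with the tool, and the fold change was −3.66 in edgeR and −3.64 in DESeq2, neither called. GRMZM5G816453 held 144 to 650 by day and 704 to 1128 by night in subsidiary cells, again with no overlap, at −1.07 ± 0.44 (SE) and an adjusted p of 0.343 in limma. In subsidiary cells 12 of 174 genes (6.9%) had day and night libraries that did not overlap, 10 of them higher by day (5.75%, against 4.25% of all genes), and 8.84% of all genes did not overlap. In guard cells it was 8 of 174 (4.6%, against 5.71% of all genes).

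Of the 174 genes, a majority lay slightly higher by day. The median log2 fold change of day over night was 0.21 in guard cells, with 110 of 174 genes higher, 0.1 in subsidiary cells, with 94 higher, and 0.27 averaged over both, with 111 higher. The medians over all genes were −0.01, −0.03 and −0.02. The averaged median stayed between 0.13 and 0.32 in the 27 alternatives run, with 100 to 120 genes higher. In guard cells the median ran from 0.1 to 0.41 over 28 alternatives, with 94 to 116 genes higher. The subsidiary cell median ran from 0.01 to 0.24, with 87 to 111 higher. It was 0.01, with 87 of 174 higher, without replicate 3 of subsidiary cells by day. These medians carry no test, and many of the genes share libraries, near-equal reads and a common organelle share.

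**Figure D5:**
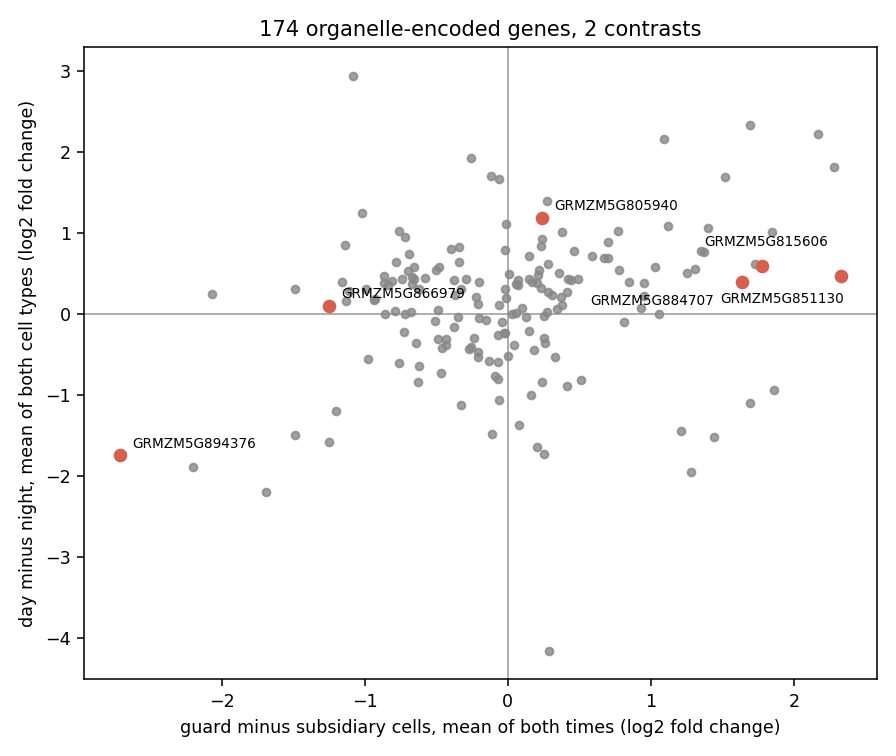
Log2 fold change of guard over subsidiary cells averaged over both times (horizontal) against that of day over night averaged over both cell types (vertical) for the 174 organelle-encoded genes, 1 dot per gene, with the 6 genes called in at least 1 comparison in red. The dots centre on −0.02 across and 0.27 up; GRMZM5G851130 lies farthest right (2.33) and GRMZM5G894376 farthest left (−2.71), and the lowest dot, GRMZM5G877454, at −4.15, did not pass.

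In limma no gene's day-night difference was shown to depend on the cell type. The interaction of cell type and time was called for 0 of 174 genes in limma (0% of all genes), with 7 at an unadjusted p under 0.05 (4.02%, against 6.71% of all genes). For it edgeR called 0 of the 174 and 1 of all genes tested, and DESeq2 called 1 and 149. The gene of the list that DESeq2 called was GRMZM5G897615. It held 22.8, 95.9, 4.52 and 71.7 in guard cells by day and 908, 22.3, 338 and 23.2 by night. In subsidiary cells it held 494, 493, 228 and 157 by day and 12.4, 50.1, 125 and 14.4 by night. By day the guard libraries lie below all subsidiary libraries, and by night the cell types overlap. Its interaction was −5.07 ± 1.64 (SE) on the log2 scale, with an adjusted p of 0.558 in limma and 0.034 in DESeq2 (−5.5). It is near-equal to GRMZM5G852144. GRMZM5G861353, with an interaction of 4.66 ± 2.05 (SE) and an adjusted p of 0.709 in limma, and GRMZM5G899836, with 4.07 ± 2.1 and 0.769, form another near-equal pair and count as 1 signal.

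The authors' deposited table gives DESeq2 comparisons of their own for the same genes, computed on the same libraries and so not independent of the values above. In the authors' deposited table, 7 genes of the list had an adjusted p under 0.05 for subsidiary against guard cells by day, 3 as higher and 4 as lower in subsidiary cells. By night the authors' deposited table has 0 as higher and 3 as lower in subsidiary cells. For night against day the authors' deposited table has 0 as higher and 5 as lower at night in subsidiary cells, and 1 as higher and 1 as lower in guard cells. How many of all genes pass in the authors' columns was not counted. The DESeq2 run on recovered reads called 1639 of all genes between cell types by day and 610 by night. Between day and night that run called 1334 in subsidiary and 1095 in guard cells. These member counts are therefore not read as a result about the list. For GRMZM5G851130 the authors' deposited table gives log2 fold changes of subsidiary over guard cells of −2.64 by day (adjusted p of 5.27e-08) and −1.98 by night (adjusted p of 0.000308). The authors' deposited table lists GRMZM5G834282 at −3.15 (adjusted p of 0.00655) and GRMZM5G815553 at −3.38 (adjusted p of 0.0185) for night over day in subsidiary cells. For subsidiary over guard cells by day it lists GRMZM5G806435 at −2.08 (adjusted p of 0.00274) and GRMZM5G889036 at 1.44 (adjusted p of 0.0357). In limma neither passed between the cell types by day (adjusted p of 0.138 and 0.114).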

How the data were processed

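The deposited table lists 38179 genes with 16 columns of normalized counts, one per library. The authors' signal is a read count per gene scaled by a factor for each library, as the file headers name it and the values show. Per the submitters' processing notes the authors used DESeq2 1.40.2 and the B73 RefGen_v4 build, so reads of line B104 were set against another line. The sources used here do not name the aligner or counter, or say how multi-mapping reads were treated. The deposited score columns are the authors' log2 fold changes and adjusted p-values. Per the labels' protocols, SMART-Seq v4 amplification started from about 10 pg of RNA, and Nextera XT libraries were made from 150 ng of the cDNA. These kits keep no strand and add no molecular identifiers, so overlapping genes cannot be told apart and reads are not independent molecules.

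Whole reads were recovered from the normalized counts with size factors of 0.73 to 1.46, and 100% of values came out whole within 0.01 in all 16 libraries. Because the deposited values are normalized, limma 3.58.1 (R 4.3.3) was run on log2(value + 1) over the 37759 genes with at least 10 in at least 4 libraries, with 4 group means, 12 residual degrees of freedom and 7 comparisons, and was tested on simulated data. On the recovered reads edgeR 4.0.16 called 2 members by day, 3 averaged over times and 1 between day and night averaged over cell types, and DESeq2 1.42.0 called 7, 8 and 8. Of all genes tested edgeR called 343, 780 and 893 in the same comparisons, and DESeq2 1639, 2076 and 2168. Other alternatives were TMM and upper-quartile scaling, a pseudocount of 10, no filter or a minimum of 50, library weights, only the groups compared, a replicate block, leaving out libraries, and counting near-equal sets once. That last one and the near-equal rule were added after seeing the data. Within each group no pair of libraries looked like one repeated library, and pairs across groups were not compared in this way. Each p-value sets a difference between group means against the spread between these libraries. In limma that spread was moderated over all genes tested.

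The genes named are the 12 with the most reads, those called in a comparison (or the 2 per direction with the smallest p where none was), those nearest the minimum, and those with the largest and smallest spread. Others were named after their values were seen. The members, lists and rules were chosen with earlier results of these data known. Nuclear lists were taken from the first word of the deposited description. Functional classes could not be filled because no member has a description, and no sequence is shown for the same reason.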

Additional observations from a re-analysis of the deposited data

Results flagged for a closer look

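Over 72 groups of 4 libraries (18 features), 2 held a library far from the other 3 by Dixon's 95% criterion, where chance alone gives about 1 in 20, or 3.6. GRMZM5G827309 stood at 8370 in replicate 2 of subsidiary cells by day, against 4360 to 4705 in the other 3. GRMZM5G836994 stood at 2563 in replicate 3 of subsidiary cells by day, against 1120 to 1360 in the other 3.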

How the results depend on the processing

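The cell type labels and the members' functions could not be checked, and low read numbers limit the 35 genes with a mean log2 value under 6, whose within-group SD was 1.73. Counts of called genes moved by more than 1.5 times as follows, and the cause was not tested. For guard against subsidiary cells by day (3) the count was 7 in DESeq2, 5 with library weights, 5 without replicate 4 of guard cells by night and replicate 1 of subsidiary cells by day, and 1 to 5 leaving out 1 library. By night (0) these were 3, 2, 1 and 0 to 1. Averaged over times (5) they were 8, 8, 9 and 2 to 8, and edgeR gave 3. For day against night in guard cells (0) DESeq2 gave 2 and leaving out 1 library 0 to 1. In subsidiary cells (0) DESeq2 gave 5, library weights 1, leaving out both libraries 1, and leaving out 1 library 0 to 1. Averaged over cell types (1) a pseudocount of 10 gave 2, DESeq2 8, leaving out both libraries 0, and leaving out 1 library 0 to 3. For the interaction (0) DESeq2 gave 1 and leaving out 1 library 0 to 0. Calls over all genes tested moved as well. For guard against subsidiary cells by day (505) they were 1639 in DESeq2, 824 with library weights, 762 without both libraries, and 234 to 815 leaving out 1 library.

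No pairing of libraries by replicate number was visible: 0 of 24 same-number pairs had deviations correlated over 0.1 (−0.06 to 0.08), and 5 of 16 libraries were nearest to their own number. Low correlations cannot show that a number does not mark 1 collection, so the pairing stays unknown. With the number as a replicate block the counts were 3 by day, 0 by night and 6 averaged over times between cell types, 0 in guard cells, 1 in subsidiary cells and 3 averaged between day and night, and 0 for the interaction. The block put GRMZM5G877454 past the threshold in subsidiary cells (adjusted p of 0.0368 in limma) and averaged over cell types (0.0271), and took GRMZM5G815606 out (0.0512).

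Upper-quartile scaling moved the median of all genes to −0.12 for day over night in guard cells and to −0.12 for the interaction; relative to it the members' medians were 0.22 and 0.12. The members' interaction median, 0.15, was −0.22 without both libraries. Of 717 alternative values of the 27 results for named genes, 652 kept their direction and their side of the threshold, 48 lost a call, 17 gained one and 0 turned direction. The mean organelle share without 1 library ranged over 0.637% to 0.741%, 0.518% to 0.666%, 0.477% to 0.538% and 0.467% to 0.504% for guard cells by day and night and subsidiary cells by day and night.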

Other observations

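One of the 171 members with at least 500 reads, GRMZM5G856027, was near-equal to a gene outside the list under the same rule. Its partner was the nuclear gene Zm00001d046260, with a mean squared difference over the sum of 2.52, a ratio of total reads of 0.929 and library ratios of 0.556 to 1.43. The search covered 33985 nuclear genes and the pair was noticed after the values were seen.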
